A study of Mus musculus with 24 samples.

Results

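The genes described here are 42 targets of the nuclear receptor PPAR-alpha and enzymes of fatty acid oxidation, measured in mouse liver. They were taken by symbol from a list, and all 42 were found among the 46093 distinct symbols of each of the 2 raw count tables, 1 for males and 1 for females. All 42 passed the filter on low counts in both tables. The study asked how the Cyp2b enzymes, cytochrome P450 monooxygenases of the liver, bear on diet-induced obesity and hepatic lipids. Liver RNA of C57BL/6 mice gave 24 libraries, 3 for each of 8 groups of sex, genotype and diet. Mice were wild type (WT) or lacked Cyp2b9, Cyp2b10 and Cyp2b13 (Cyp2b-null), and ate normal chow (ND) or a high-fat diet with 60% fat (HFD) for 10 weeks. For males the extraction kit was RNeasy Plus Universal and the library kit TruSeq Total RNA; for females Trizol and NEB Next Ultra RNA were used. Sex and kit can therefore not be separated. No age is given, and nothing states that each library came from an animal of its own, so p-values measure only the spread between these libraries.

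PPAR-alpha is a receptor for fatty acids that binds DNA as a pair with the retinoid X receptor. In liver it raises transcription of genes that carry fatty acids into mitochondria and peroxisomes, shorten them by beta-oxidation and send out ketone bodies, and it is best known for its part in the response to fasting. The members were grouped by role. They comprise the carnitine shuttle and acyl-CoA entry, the mitochondrial beta-oxidation spiral, auxiliary enzymes for unsaturated chains, electron transfer, peroxisomal oxidation, acyl-CoA thioesterases, a group of regulators with the hepatokine Fgf21 and the fuel switch Pdk4, and 4 other targets (Bdh1, Vnn1, Vnn3 and Aldh3a2).

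PPAR-alpha and its partner bind a direct repeat of 2 AGGTCA half-sites with any 1 base between them, known as DR1. This motif was searched on both strands, with at most 2 mismatches in its 12 fixed bases, in RefSeq promoter windows of build GRCm38.p6 that run from 250 bases before to 50 bases after each gene start. Of the 37 members with a window, 5 held a match (13.5%), against 1190 of 27025 genes (4.4%). The 5 were Etfa, Slc25a20, Creb3l3, Acot4 and Acot12, and the Creb3l3 match lies before an internal start. The promoters of 2 thioesterases are shown because Acot4 and Acot12 recur in the results and their matches lie before the main start. Each is printed 5′ to 3′ on the strand of the gene, and capitals mark the match, which reads on the opposite strand. Acot4 has 2 mismatches in its match and Acot12 has 1. These are matches of letters only, and binding was not measured.
Acot4, chr12:84038229-84038378, plus strand: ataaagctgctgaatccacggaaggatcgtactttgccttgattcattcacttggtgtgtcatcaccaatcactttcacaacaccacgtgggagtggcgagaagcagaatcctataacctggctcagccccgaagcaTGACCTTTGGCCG
Acot12, chr13:91741371-91741511, plus strand: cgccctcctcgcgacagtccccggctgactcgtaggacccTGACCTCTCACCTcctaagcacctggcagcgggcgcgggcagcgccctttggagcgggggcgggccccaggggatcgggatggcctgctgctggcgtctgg

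Library totals were 8.28 to 20.2 M counts in males and 2.01 to 2.66 M in females. Hepatocyte markers, 10 of 10 with counts in every group, summed to between 43747 and 157253 counts scaled to library size (CPM). In females Cyp2b9 ran from 788 to 1245 counts in WT libraries and from 0 to 17 in Cyp2b-null libraries. In males the ranges met, at 1 to 797 counts in WT and 19 to 85 in the libraries labelled Cyp2b-null, and Cyp2b10 and Cyp2b13 did not separate the male genotypes either. The male genotype is therefore given as labelled. In males, 1 library diverged, number 1 of the ND group labelled Cyp2b-null, with 32% mitochondrial counts and a median Spearman correlation of 0.7983 with the other male libraries, where each other library reached at least 0.965. Female libraries fell on 2 sides of a first principal component (29.3% of variance) that crossed the groups. Of the female libraries, WT ND 1 had 14% mitochondrial counts and the others at most 8.54%. Many results that rest on these libraries are also given without the divergent male library, by side or with a term for the sides. Counts of libraries apart and marker sums include all libraries. In bulk liver, fewer cells of a type and less RNA per cell cannot be told apart.

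Expression levels spread over more than 2 orders of magnitude between members. Per kilobase of exon, Acaa1b, the liver-enriched peroxisomal thiolase, was highest in both tables, with a mean of 671 CPM per kb in females and 1028 in males. Acaa2, the mitochondrial thiolase, was next in females at 526 and stood at 512 in males. Fgf21, a fasting hormone secreted by the liver, was near the bottom in both tables at 4.02 and 2.58 CPM per kb. Acot2, the mitochondrial thioesterase, stood beside it at 4.11 and 2.3. The subunits of the mitochondrial trifunctional protein had unequal values, with Hadha at 31.8 and Hadhb at 9.14 CPM per kb in females and at 39.4 and 7.85 in males. The length used merges all annotated exons, 8730 bases for Hadha and 6595 for Hadhb. In females they also differed in opposite directions between the library sides (-0.55 and 0.73), so their ratio is uncertain. Acot3, a peroxisomal thioesterase, reached 52 CPM per kb in females and 11.3 in males. Acadvl, the very-long-chain acyl-CoA dehydrogenase, ran from 132 to 322 CPM in female libraries and from 0.866 to 3.5 CPM in male libraries. Of its exon length, 42.9% overlaps Dvl2 on the opposite strand, and the rest overlaps no annotated gene. Whether the counting used strand is not given in the sources used here, so reads of the shared part cannot be told apart. Acadvl and Acadl were also the members with repeated symbols in the male file. Male Acadvl rested on 8 to 70 counts per library, and the cause of the gap between the sexes was not tested. Reads shared by the Acot1 to Acot4 cluster, or by Acaa1a and Acaa1b, could have been split or dropped in counting, and their single values are uncertain. For Etfb, 58.2% of the exon length overlaps other annotated genes.

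**Figure D1:**
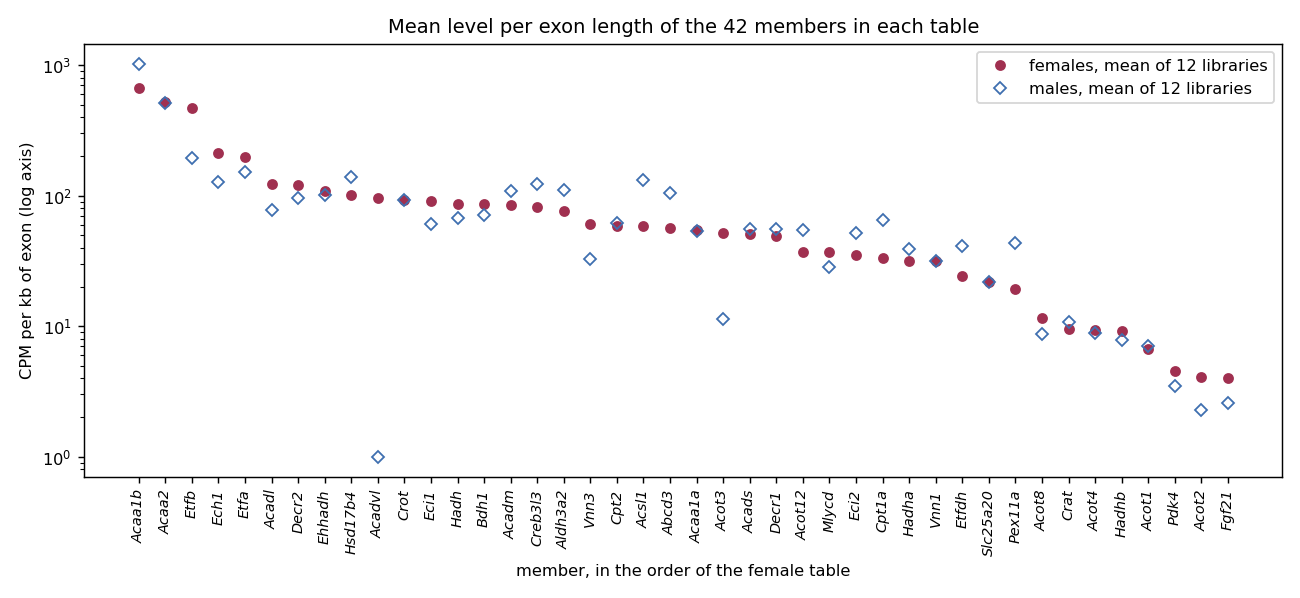
Mean level of each of the 42 members in the female and the male table, as CPM per kilobase of exon on a log axis, in the female order. Acaa1b heads both tables at 671 and 1028 CPM per kb, Fgf21 and Acot2 lie near the low end of both, and Acadvl is the lowest member in males at 0.994 CPM per kb.

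Female WT livers on ND had the lowest members of the 4 female groups. Their mean was the lowest for 38 of 42 members, while the highest mean was in Cyp2b-null HFD for 27 and in Cyp2b-null ND for 14. Each library was summarised by the median over members of its log2 CPM minus the member's table mean. The WT ND females stood at -0.46, -0.25 and -0.20, and the Cyp2b-null ND females at -0.22, 0.20 and 0.23. WT HFD females stood at -0.09, 0.01 and 0.21, and Cyp2b-null HFD females at 0.20, 0.35 and 0.02. All WT ND libraries were thus below 0, and library 1 of the Cyp2b-null ND group lay among them. In males the values were 0.06, -0.19 and -0.14 in WT ND and 0.46, 0.18 and 0.29 in WT HFD. Males labelled Cyp2b-null stood at -1.21, 0.04 and -0.08 on ND and at 0.11, 0.28 and 0.24 on HFD. Every male HFD library was above every male ND library, and the lowest was library 1 of the labelled Cyp2b-null ND males, which was the lowest of all male libraries for 27 members.

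**Figure D2:**
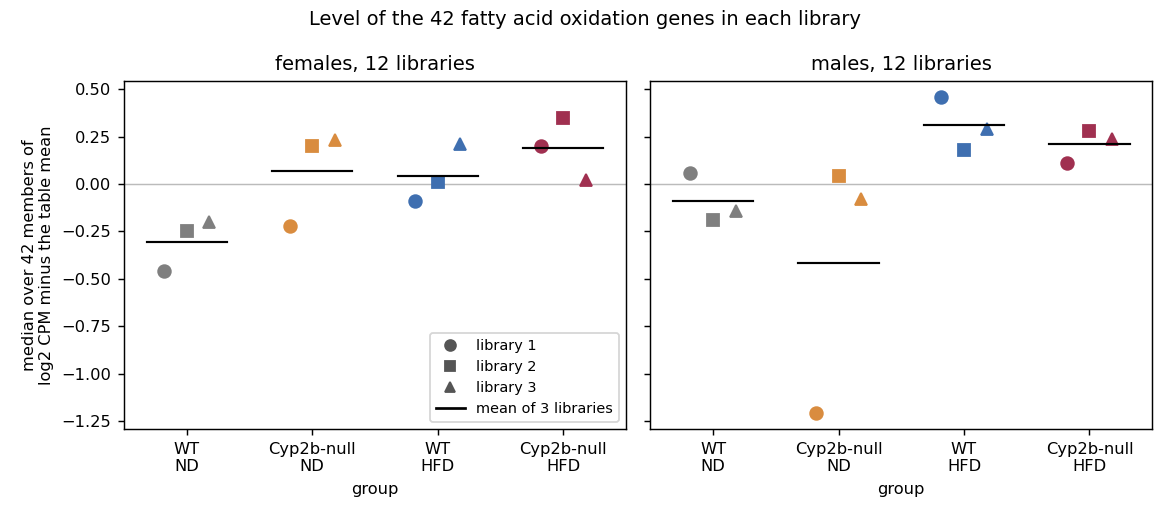
Median over the 42 members of log2 CPM minus the member's mean over its table, for each of the 12 female and 12 male libraries; symbols give the library number and lines the group mean. Female WT ND libraries lie at -0.46 to -0.20, all below 0, and male ND library 1 of the labelled Cyp2b-null group lies lowest at -1.21.

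On ND, 40 of 42 members had higher levels in females without the Cyp2b genes than in WT females, against 47.4% of the 11830 genes tested. The median log2 difference, Cyp2b-null minus WT, was 0.44 over members and -0.02 over all genes. None passed the edgeR quasi-likelihood test at a Benjamini-Hochberg adjusted p below 0.05, which 0.127% of genes did, while DESeq2 called 1 member, Fgf21. Without the filter on low counts the edgeR test called 4, Fgf21, Vnn1, Acot3 and Acaa1b, all higher. In that fit genes with almost no counts enter the shared estimate of the spread, and the effect on these calls was not tested. At an unadjusted p below 0.05, 15 members were higher and 0 lower (16 higher by DESeq2), where 2.98% of genes were higher and 3.36% lower. The 3 libraries of each group did not overlap for 13 members, all higher in Cyp2b-null, against 5.18% of genes higher and 6.1% lower. The median was 0.40 with a term for the library sides, which gave 22 members higher at an unadjusted p below 0.05, against 5.06% of genes. Within the sides the median was 0.03 over 1 Cyp2b-null and 2 WT libraries (25 of 42 members higher). It was 0.72 over 2 Cyp2b-null and 1 WT library (38 of 42 higher), so its size was not even. That 1 WT library was WT ND 1, with 14% mitochondrial counts, which was the lowest of all female libraries for 22 members. Immediate early genes, which many stimuli induce within a short time, were 11 of 11 with counts and summed to 459 to 1259 CPM in WT and 2288 to 3080.1 CPM in Cyp2b-null females on ND; their part in the result was not tested.

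By role, every measured member was higher in the spiral (8 of 8, median 0.31), the peroxisomal group (6 of 6, median 0.52), the thioesterases (6 of 6, median 0.43), the auxiliary enzymes (5 of 5, median 0.52), the regulators (3 of 3, median 0.60) and the other targets (4 of 4, median 0.37). The carnitine shuttle had 6 of 7 higher (median 0.44). The electron transfer group, which passes electrons from the dehydrogenases to the respiratory chain, had 2 of 3 higher with a median of 0.07. Crot, the peroxisomal carnitine octanoyltransferase, and Etfa were the 2 members not higher, at -0.13 and -0.07.

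Fgf21 (chromosome 7, bases 45613886 to 45615490, GRCm38) had the largest difference. It was at 0.463, 0.998 and 0.42 CPM in WT ND females and at 2.17, 9.88 and 12.9 CPM in Cyp2b-null ND females. The groups did not overlap, and the lowest Cyp2b-null library was more than 2 times the highest WT library. The log2 difference was 3.66 ± 0.86 (SE, 95% interval 1.81 to 5.50, edgeR adjusted p = 0.144; 0.000505 to 0.639 over the alternatives). It rested on 1 to 2 counts per WT library and 5 to 32 per Cyp2b-null library, so the size of this difference is imprecise.

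Eci2 (chromosome 13, bases 34977748 to 35027096), an isomerase that prepares unsaturated chains for oxidation, came next by p. Its levels were 98.2, 152 and 157 CPM in WT and 175, 293 and 265 CPM in Cyp2b-null females on ND. All Cyp2b-null libraries were above all WT libraries, and the difference was 0.85 ± 0.23 (edgeR adjusted p = 0.27). Cpt1a (chromosome 19, bases 3322334 to 3385733), the rate-limiting carnitine palmitoyltransferase of the outer mitochondrial membrane, stood at 126, 184 and 182 CPM in WT and at 208, 265 and 339 CPM in Cyp2b-null females. Here too the groups did not overlap (0.72 ± 0.24, edgeR adjusted p = 0.49). In the peroxisome, Acaa1b was at 978, 811 and 917 CPM in WT and at 1046, 2137 and 1710.4 CPM in Cyp2b-null females, with a difference of 0.85 ± 0.28 (edgeR adjusted p = 0.474; 0.0216 to 1 over the alternatives). Library 1 of the Cyp2b-null group sat just above the WT range, and the other two were well above it.

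Acot3 (chromosome 12, bases 84052144 to 84060402) was at 52.3, 64.9 and 123 CPM in WT and at 128, 196 and 153 CPM in Cyp2b-null females on ND. The groups were separated by a narrow gap, and the difference was 0.99 ± 0.32 (edgeR adjusted p = 0.482; 0.0109 to 0.999 over the alternatives). The other members with an unadjusted p below 0.05 and no overlap were Acaa1a (0.59), Decr1 (0.56), Decr2 (0.52), Acaa2 (0.43) and Acot12 (0.43). Decr1 and Decr2 are the mitochondrial and peroxisomal dienoyl-CoA reductases. Vnn1, a pantetheinase and known PPAR-alpha target, differed by 1.11 ± 0.37, but its Cyp2b-null library 1 at 36.9 CPM lay within the WT range of 28.7 to 44.1 CPM. Pex11a (0.78), Creb3l3 (0.60), Bdh1 (0.52) and Mlycd (0.44) overlapped as well.

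**Figure D3:**
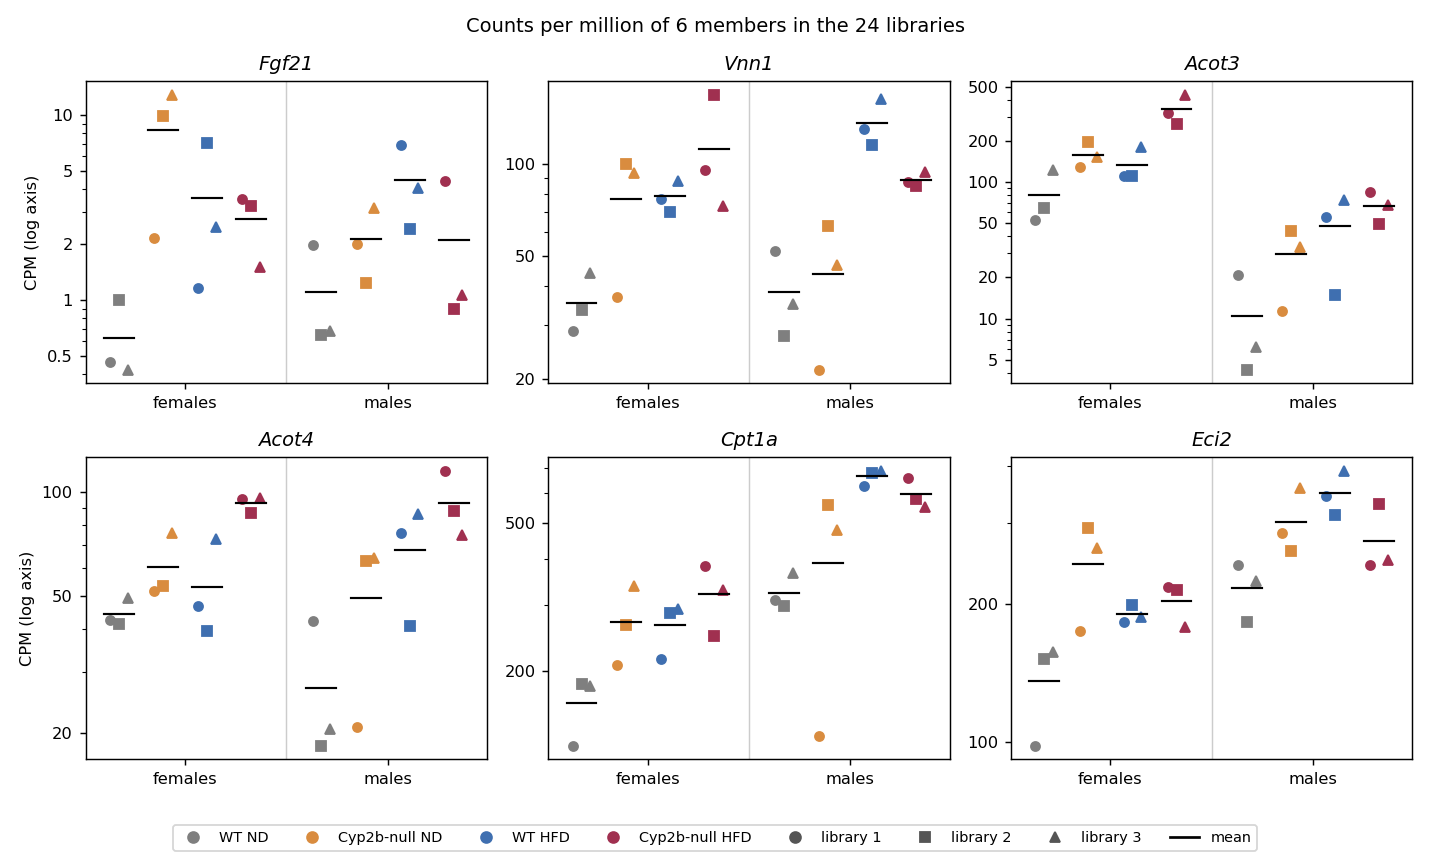
Levels of Fgf21, Vnn1, Acot3, Acot4, Cpt1a and Eci2 in each of the 24 libraries, as CPM on log axes, by sex, genotype and diet; symbols give the library number and lines the group mean. Fgf21 separates Cyp2b-null from WT females on ND (2.17 to 12.9 against 0.42 to 0.998 CPM), and Vnn1 separates HFD from ND WT libraries in both sexes.

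On HFD the main genotype differences among females were in the thioesterases Acot3 and Acot4. The median difference over members was 0.13 against -0.01 over all genes, and 37 of 42 members were higher in Cyp2b-null (49.1% of genes). The edgeR test called 0 members (0.0169% of genes) and DESeq2 also 0; 2 members were higher at an unadjusted p below 0.05 by either tool (0.989% of genes higher, 1.45% lower). These 2 were neighbouring thioesterases of the cluster on chromosome 12. Acot3 was at 110.1, 111 and 182 CPM in WT and at 321, 266 and 436 CPM in Cyp2b-null females on HFD, a difference of 1.34 ± 0.32 (95% interval 0.67 to 2.02, edgeR adjusted p = 1; 3.98e-05 to 1 over the alternatives). It was called only without the filter on low counts, where genes with almost no counts enter the shared estimate of the spread. Acot4 (bases 84038379 to 84048601), which releases free dicarboxylic acids such as succinate in the peroxisome, was at 46.7, 39.6 and 73 CPM in WT and at 95.5, 86.5 and 95.8 CPM in Cyp2b-null females (0.80 ± 0.23, edgeR adjusted p = 1). For both genes every Cyp2b-null library was above every WT library. Pex11a, a peroxisome division protein, also did not overlap (0.49), and neither did Acadl (0.18). Crot was lower without overlap, at 452, 507 and 416 CPM in Cyp2b-null against 571, 518 and 612 CPM in WT females (-0.31 ± 0.21). The libraries apart were 4 members higher and 1 lower, against 3.38% and 3.59% of genes.

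In WT females, HFD libraries were higher than ND libraries for 39 of 42 members (49.7% of genes), with a median of 0.31 against -0.00 over all genes. This comparison shares the WT ND libraries with the genotype comparison on ND, so the 2 are not independent. Within the library sides the median was 0.31 over 2 HFD and 2 ND libraries (39 of 42 higher). It was 0.40 over 1 HFD and 1 ND library (37 of 42 higher), the latter being WT ND 1. By edgeR 0 members were called (0.0169% of genes), and 8 were higher at an unadjusted p below 0.05 (1.67% of genes higher, 1.82% lower), with 0 called and 9 higher by DESeq2. For 15 members all HFD libraries were above all ND libraries, against 3.89% of genes, and for 0 members below them, against 3.97%. The carnitine shuttle (7 of 7, median 0.36), the spiral (8 of 8, 0.29), the auxiliary enzymes (5 of 5, 0.48) and the other targets (4 of 4, 0.50) were all higher, whereas 4 of 6 thioesterases were (0.16). Kupffer cell markers, 10 of 10 with counts, summed to 226 to 448 CPM in WT ND and 376 to 674 CPM in WT HFD females. The lymphocyte and hepatocyte lists did not overlap between these groups. Lymphocyte markers (6 of 6 with counts) summed to 6.99 to 18.1 CPM on ND and 18.5 to 23.9 CPM on HFD, and hepatocyte markers (10 of 10) to 100576 to 111689 CPM and 94474 to 96624 CPM. Muscle markers reached at most 0.463 CPM in WT ND females and 177 CPM in WT HFD females, the latter in library 3. The part of these markers in the differences was not tested.

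Vnn1 (chromosome 10, bases 23894688 to 23905343) was at 28.7, 33.4 and 44.1 CPM in WT ND females and at 77.2, 70 and 88.2 CPM in WT HFD females. The groups lay well apart, and the difference was 1.14 ± 0.37 (95% interval 0.36 to 1.93, edgeR adjusted p = 1; 0.00504 to 1 over the alternatives). With the replicate number as a block it was 1.16 and passed the edgeR test (adjusted p = 0.0346), the 1 member so called against 0.135% of genes. Fgf21 was at 1.16, 7.08 and 2.47 CPM in WT HFD females, just above its WT ND range (2.43 ± 0.93, edgeR adjusted p = 1). Cpt1a was at 216, 287 and 293 CPM, all above the WT ND libraries (0.69 ± 0.24, edgeR adjusted p = 1). Bdh1, which interconverts the ketone bodies acetoacetate and 3-hydroxybutyrate, was at 195, 230.1 and 278 CPM on ND and at 309, 417 and 394 CPM on HFD in WT females. It did not overlap and differed by 0.67 ± 0.21 (edgeR adjusted p = 1). Hadh (0.53), the short-chain hydroxyacyl-CoA dehydrogenase, Decr2 (0.48) and Acaa1a (0.46) were separated in the same way, while Acot3 (0.74) overlapped.

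In Cyp2b-null females the diet comparison also had Acot3 and Acot4 in front, and the median difference was 0.08 against 0.01 over all genes, with 27 of 42 members higher on HFD (51.3% of genes). The edgeR test called 0 members (0% of genes), with 3 higher and 1 lower at an unadjusted p below 0.05 (2.36% and 2.44% of genes), and DESeq2 gave the same counts. Acot3, at 128, 196 and 153 CPM on ND and 321, 266 and 436 CPM on HFD, did not overlap (1.10 ± 0.32, edgeR adjusted p = 0.963; 0.00452 to 1 over the alternatives, called without the filter on low counts). Acot4 was at 51.7, 53.4 and 76 CPM on ND and at 95.5, 86.5 and 95.8 CPM on HFD, also apart (0.62 ± 0.23, edgeR adjusted p = 0.963). Aldh3a2, the fatty aldehyde dehydrogenase, was at 338, 388 and 464 CPM on ND and 577, 575 and 532 CPM on HFD (0.50 ± 0.21, edgeR adjusted p = 0.963). All 3 genes were higher in each HFD library than in any ND library. Fgf21 was lower on HFD, at 3.52, 3.24 and 1.51 CPM, with overlap (-1.59 ± 0.68, edgeR adjusted p = 0.963). Libraries were apart for 6 members, all higher on HFD, against 6.18% of genes higher and 5.05% lower. Kupffer cell markers summed to 216 to 404 CPM on ND and 445 to 773 CPM on HFD in these females, and endothelial markers (7 of 7 with counts) to 180.2 to 195 CPM and 135 to 156 CPM. The part of these markers was not tested.

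The interaction, the HFD difference in Cyp2b-null minus that in WT females, had a median of -0.29 over members, with 9 of 42 above 0 (51.4% of genes). No member was called by edgeR (0% of genes) or by DESeq2, and 2 were lower at an unadjusted p below 0.05 by each tool (1.34% of genes higher, 1.55% lower). These were Fgf21 (-4.02 ± 1.15, edgeR adjusted p = 1) and Eci2 (-0.75 ± 0.32, edgeR adjusted p = 1). With a term for the library sides Fgf21 stood at -3.90 ± 1.15 and Eci2 at -0.74 ± 0.29. All 7 carnitine shuttle genes, all 5 auxiliary enzymes and all 3 regulators were below 0, whereas 4 of 6 thioesterases were above 0 with a median of 0.20. A smaller diet difference in Cyp2b-null females was therefore not established for any member, and WT ND libraries enter this contrast too.

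**Figure D4:**
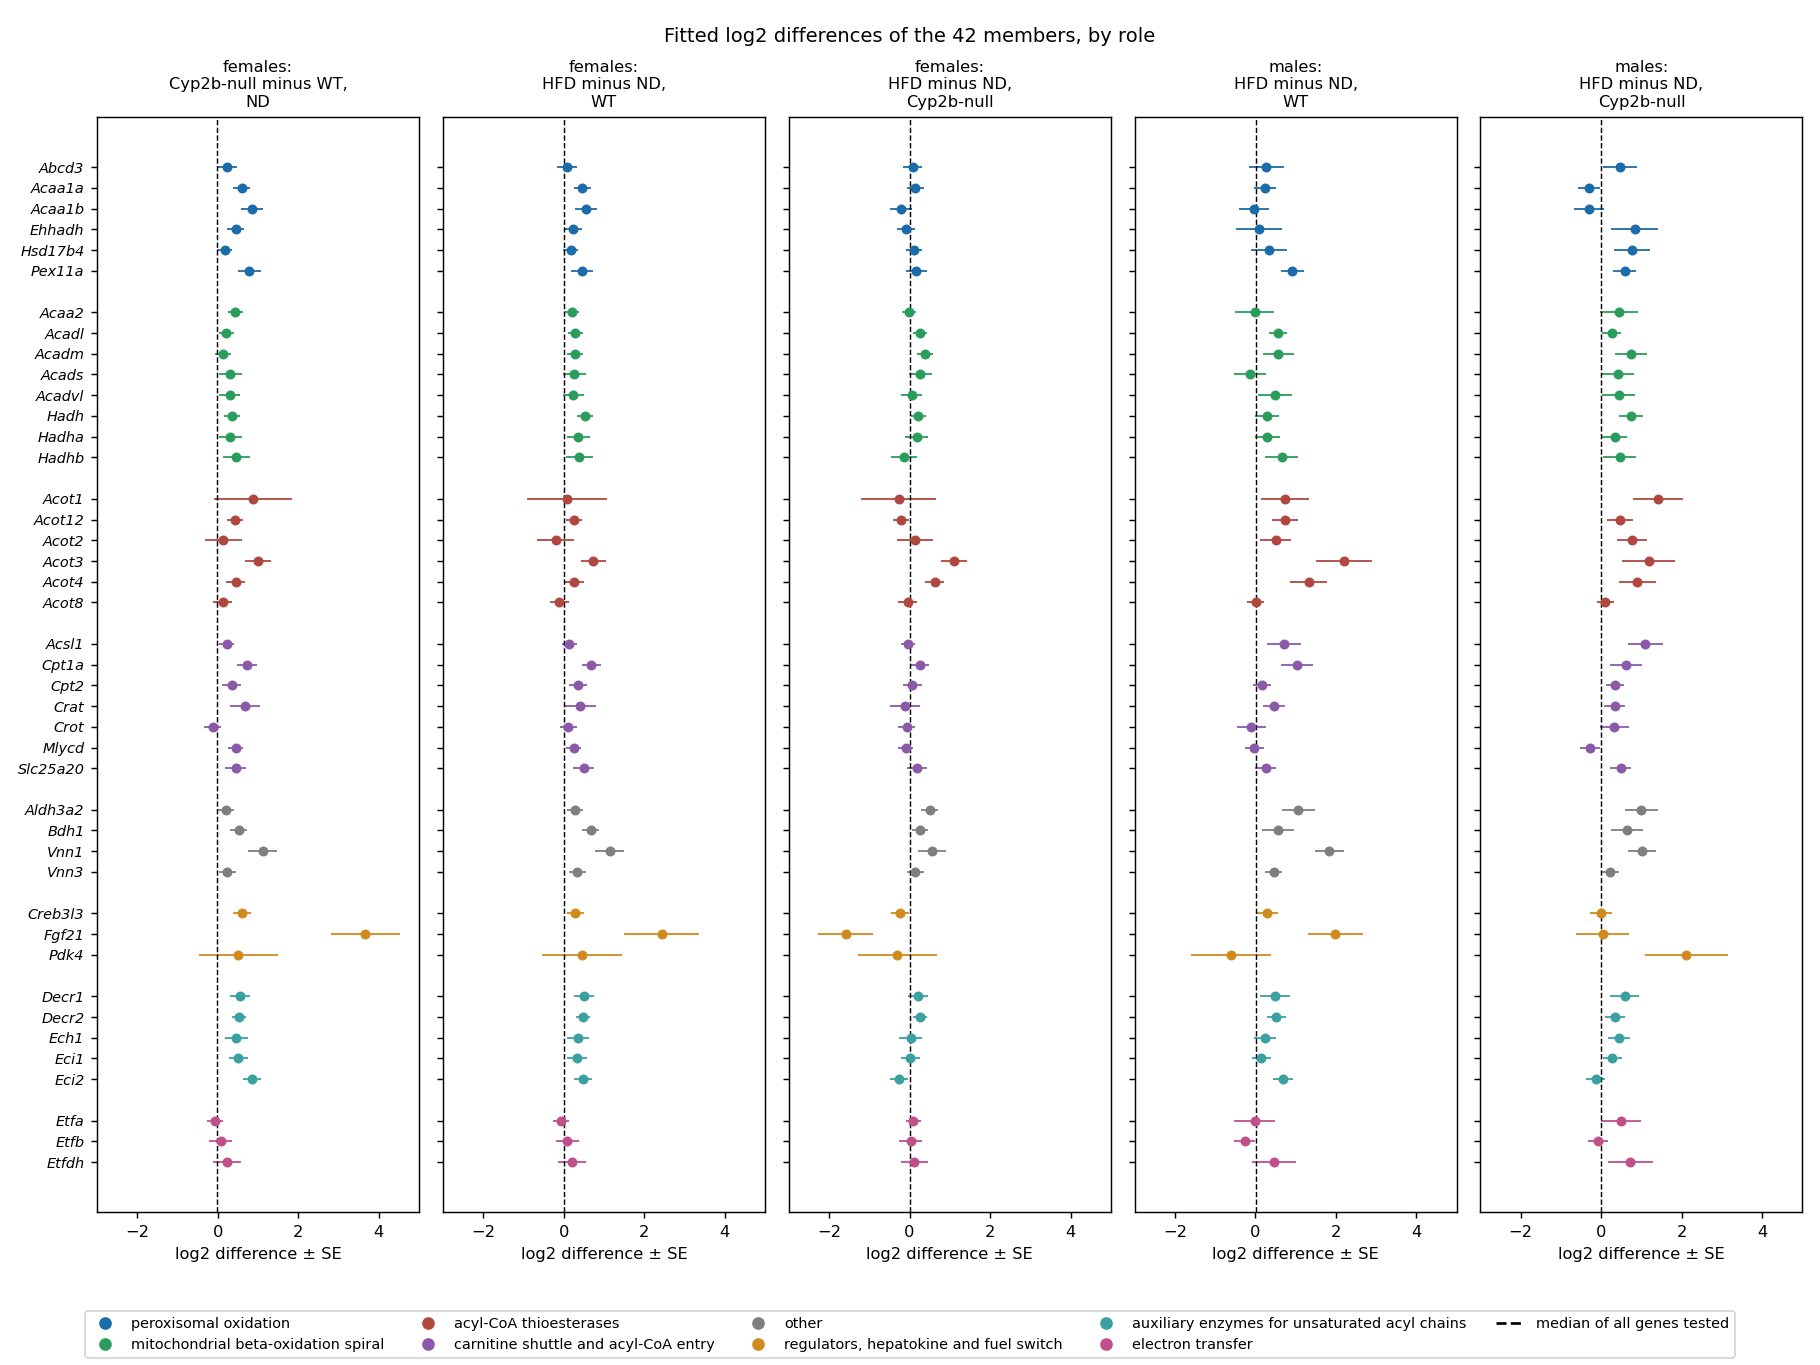
Log2 difference with its SE for each of the 42 members, by role, in the female genotype comparison on ND and in the diet comparisons of each sex and genotype; dashed lines give the median of all genes tested. The members lie mostly to the right in the female genotype comparison on ND (median 0.44) and in WT on HFD (0.31 in females, 0.46 in males), and nearer 0 in Cyp2b-null females on HFD (0.08).

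WT males on HFD were higher than WT males on ND for 34 of 42 members (51.9% of genes), with a median of 0.46 against 0.02 over the 14873 genes tested. The edgeR test called 0 members (0% of genes) and DESeq2 called 1, Vnn1. At an unadjusted p below 0.05, 11 members were higher and 0 lower (12 higher by DESeq2), against 3.61% and 2.88% of genes. Libraries were apart for 20 members, all higher on HFD, against 12.9% of genes higher and 10.1% lower. The divergent library is not in these 2 groups, but the 4 male groups share 1 estimate of the spread. Without it edgeR called 4 members, 0.72% of genes. With the replicate number as a block, fitted on the WT libraries alone, it called 5, against 1.77% of genes. The 4 other targets (4 of 4, median 0.81), the thioesterases (6 of 6, 0.73) and the auxiliary enzymes (5 of 5, 0.48) were higher throughout, while the electron transfer group had 1 of 3 higher (-0.02). Hepatocyte markers (10 of 10 with counts) summed to 124066 to 157253 CPM in WT ND and 95759 to 115711 CPM in WT HFD males, without overlap, and their part in these differences was not tested.

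Vnn1 was at 52.2, 27.5 and 34.9 CPM in WT ND males and at 130.3, 115 and 163 CPM in WT HFD males. Each HFD library was more than 2 times any ND library, and the difference was 1.84 ± 0.36 (95% interval 1.05 to 2.62, edgeR adjusted p = 0.25; 0.000808 to 1 over the alternatives). Vnn1 was called without the divergent library (1.84 ± 0.22, edgeR adjusted p = 0.00606) and with the replicate block (1.85, edgeR adjusted p = 0.00246). Cpt1a was at 309.7, 298 and 366 CPM on ND and at 628, 681 and 690.0 CPM on HFD. The groups were far apart (1.04 ± 0.40, edgeR adjusted p = 0.702), and Cpt1a was called without the divergent library (edgeR adjusted p = 0.0206; 0.0206 to 1 over the alternatives) and with the block (1.03, edgeR adjusted p = 0.022).

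Aldh3a2 was at 528, 371 and 325 CPM on ND and at 893, 819 and 832 CPM on HFD in WT males. It did not overlap (1.06 ± 0.41) and was called without the divergent library (edgeR adjusted p = 0.0288; 0.024 to 1 over the alternatives). Acot12, a cytosolic acetyl-CoA thioesterase, was at 137, 119 and 128 CPM on ND and at 201, 196 and 245 CPM on HFD (0.74 ± 0.32). It too was apart, and it was called without the divergent library (edgeR adjusted p = 0.0466; 0.0466 to 1 over the alternatives). Fgf21 was at 1.99, 0.65 and 0.684 CPM on ND and at 6.93, 2.43 and 4.03 CPM on HFD (1.99 ± 0.69). It was apart and was called with the block (2.04, edgeR adjusted p = 0.019; 0.019 to 1 over the alternatives). Acot4 was at 42.3, 18.4 and 20.5 CPM on ND and at 76, 40.9 and 86.3 CPM on HFD (1.32 ± 0.46). It overlapped by 1 pair of libraries and was called with the block (1.34, edgeR adjusted p = 0.0278; 0.0278 to 1 over the alternatives).

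Of the rest in WT males, Pex11a (0.92), Eci2 (0.69), Acadl (0.56), the long-chain acyl-CoA dehydrogenase, and Decr2 (0.52) had an unadjusted p below 0.05 and did not overlap. Acot3 overlapped, at 20.8, 4.22 and 6.15 CPM on ND and 55.4, 14.8 and 73.9 CPM on HFD (2.20 ± 0.69). Library 1 of the ND group and library 2 of the HFD group made the overlap in both Acot3 and Acot4. The lowest difference was in Pdk4, the kinase that turns off pyruvate dehydrogenase, at -0.61 ± 0.99.

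In males labelled Cyp2b-null, 36 of 42 members were higher on HFD than on ND (49.5% of genes), with a median of 0.46. Without the divergent ND library the median was 0.21, with 37 of 42 higher (49.3% of genes). By edgeR 0 members were called (0% of genes) and 5 were higher at an unadjusted p below 0.05 (2.65% of genes higher, 8.49% lower), with 0 and 6 by DESeq2. Libraries were apart for 17 members, all higher on HFD, against 6.37% of genes higher and 5.72% lower. Vnn1 was at 21.4, 62.8 and 46.9 CPM on ND and at 87.3, 84.5 and 93.9 CPM on HFD, without overlap (1.01 ± 0.35, edgeR adjusted p = 0.434; 0.69 ± 0.25 without the divergent library). Acsl1, which activates long-chain fatty acids to acyl-CoA, was at 282, 1245 and 970.1 CPM on ND and at 1622, 1877 and 1856 CPM on HFD. It was apart (1.10 ± 0.43, edgeR adjusted p = 0.434), and the difference was 0.69 ± 0.22 without the divergent library. Aldh3a2 (0.99), Hadh (0.75) and Acot1 (1.41), a cytosolic thioesterase, were also apart at an unadjusted p below 0.05. Without the divergent library Aldh3a2 stood at 0.59 and Hadh at 0.45, and Acot1 no longer had an unadjusted p below 0.05. Each of the differences named here was smaller without that library.

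In the male genotype comparison on ND, 15 of 42 members were higher in males labelled Cyp2b-null than in WT males (53.7% of genes), with a median of -0.14 against 0.06 over all genes. Without the divergent library the direction turned, with 25 of 42 higher (52.1% of genes) and a median of 0.07. By edgeR 0 members were called (0.0134% of genes), with 2 higher and 1 lower at an unadjusted p below 0.05 (12.7% and 5.84% of genes), and DESeq2 called 0 with 3 higher and 1 lower. Libraries were apart for 1 member higher and 7 lower, against 10.3% and 12.5% of genes. These counts lie near or below the shares over all genes. Without the divergent library 0 members were called, and 6 were higher and 1 lower at an unadjusted p below 0.05, against 10.1% and 7.24% of genes. Crot was at 769, 596 and 590.4 CPM in WT and at 155, 489 and 366 CPM in the labelled Cyp2b-null males on ND. It was lower in each labelled Cyp2b-null library (-0.95 ± 0.37, edgeR adjusted p = 0.227; -0.61 ± 0.23 without the divergent library). Without that library Acot3 differed by 1.88 ± 0.75, Acot4 by 1.23 ± 0.36, Pex11a by 0.78 ± 0.26 and Cpt1a by 0.68 ± 0.18. Acot12 differed by 0.66 ± 0.17 and Eci2 by 0.51 ± 0.21, and none of these 6 members was called. All 6 were higher in both remaining labelled Cyp2b-null libraries than in any WT library. Acot3 and Pex11a were the 2 members higher at an unadjusted p below 0.05 by edgeR with all libraries. Hepatocyte markers (10 of 10 with counts) summed to 124066 to 157253 CPM in WT and 43747 to 94607 CPM in the labelled Cyp2b-null males on ND. Lymphocyte markers (6 of 6) summed to 8.12 to 11.8 CPM in WT and 13.1 to 73.1 CPM in the labelled Cyp2b-null males. The part of these markers in the differences was not tested.

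On HFD the male genotypes differed by a median of -0.15 over members, with 14 of 42 higher in the labelled Cyp2b-null group (48.5% of genes). By edgeR 0 members were called (0% of genes) and 0 had an unadjusted p below 0.05 in either direction (1.41% of genes higher, 0.706% lower), with 0 and 0 by DESeq2. Without the divergent ND library, which shares the estimate of the spread, 0 were called and 4 were lower at an unadjusted p below 0.05 (2.1% of genes): Vnn1 (-0.62 ± 0.22), Crot (-0.53 ± 0.21), Bdh1 (-0.37 ± 0.16) and Hadhb (-0.36 ± 0.15). Vnn1 was lower without overlap, at 87.3, 84.5 and 93.9 CPM against 130.3, 115 and 163 CPM in WT (-0.62 ± 0.35, edgeR adjusted p = 1). Libraries were apart for 1 member higher and 6 lower, against 4.67% and 3.6% of genes. All 6 thioesterases stood higher in the labelled Cyp2b-null males, from 0.04 to 0.48, while all 5 auxiliary enzymes stood lower, from -0.35 to -0.05. None of these single differences passed a test. Crot was at 779.6, 487 and 553 CPM in WT HFD males and at 425, 457 and 377 CPM in the labelled Cyp2b-null group, without overlap (-0.53 ± 0.36, edgeR adjusted p = 1). In the male interaction edgeR called 0 members (0% of genes) and DESeq2 0, with 0 higher and 1 lower by edgeR at an unadjusted p below 0.05 (1.44% of genes higher, 3.21% lower) and 2 lower by DESeq2. The median over members was 0.09, with 23 of 42 above 0 (46.5% of genes). Without the divergent library the direction turned, with a median of -0.23 and 14 of 42 above 0 (47.8% of genes). There 0 members were called and 6 were lower at an unadjusted p below 0.05 (4.77% of genes): Vnn1 (-1.14 ± 0.33), Eci2 (-0.86 ± 0.28), Cpt1a (-0.84 ± 0.24), Acot12 (-0.62 ± 0.23), Hadhb (-0.62 ± 0.22) and Acadl (-0.51 ± 0.20). With all libraries, the member lower by edgeR was Eci2 (-0.82 ± 0.34, edgeR adjusted p = 0.891).

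The sexes were compared in 1 fit of all 24 libraries over 15043 genes, in which sex goes with kit. The male genotype is as labelled here too, since the Cyp2b counts did not separate the male groups. The female difference on ND includes WT ND 1, with 14% mitochondrial counts. The genotype difference on ND was higher in females than in males for 39 of 42 members (46.4% of genes), by a median of 0.57, and by 0.42 for 36 of 42 (50.6% of genes) without the divergent male library. By edgeR 0 members were called (0.0332% of genes) and 6 were higher at an unadjusted p below 0.05 (4.22% of genes higher, 7.48% lower), with 0 and 9 by DESeq2. The 6 were Fgf21 (2.83 ± 1.24), Acaa2 (1.09), Bdh1 (0.97), Ech1 (0.96), Eci1 (0.84) and Hadh (0.81), with edgeR adjusted p from 0.373 to 0.426. Ech1 is an isomerase of dienoyl-CoA and Eci1 the mitochondrial enoyl-CoA isomerase. On HFD the genotype difference was higher in females for 39 of 42 members (50.5% of genes) by a median of 0.30, with 0 members called by edgeR (0.0133% of genes) or DESeq2. At an unadjusted p below 0.05 there was 1 member higher by edgeR, Vnn1 (1.14 ± 0.52, edgeR adjusted p = 1; 0.472% of genes higher, 1.06% lower), and 2 by DESeq2.

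The diet difference in WT, female minus male, had a median of -0.04 over members, with 18 of 42 above 0 (50.9% of genes). No member was called by edgeR (0.00665% of genes) or DESeq2, and none had an unadjusted p below 0.05 by either (1.68% of genes higher, 2.03% lower). Without the divergent male library 3 members were lower at that threshold (3.8% of genes) and 0 were called. In livers labelled Cyp2b-null the female minus male diet difference had a median of -0.38, and -0.12 without the divergent male library; 5 of 42 members were above 0 (52.4% of genes). By edgeR 0 members were called (0% of genes) and 1 was lower at an unadjusted p below 0.05, Acsl1 (-1.15 ± 0.46, edgeR adjusted p = 0.965; 3.32% of genes higher, 1.32% lower), with 0 called and 1 lower by DESeq2. Only without the filter on low counts was Pdk4 called, in 2 of the 4 comparisons of the sexes. For the genotype difference on ND its value with the filter was 2.13 ± 1.44 (edgeR adjusted p = 0.57; 0.00467 to 0.762 over the alternatives). For the diet difference in livers labelled Cyp2b-null it was -2.39 ± 1.43 (edgeR adjusted p = 0.965; 0.00164 to 1 over the alternatives).

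Pdk4 was the most variable member in females. It stood at 0.772, 8.33 and 44.1 CPM in WT HFD females, a range of 57.1 times from lowest to highest over the female table. The library with 44.1 CPM, WT HFD 3, also held muscle markers summing to 177 CPM, where the other female libraries had at most 0.463 CPM. Pdk4 is also abundant in muscle, and the part of muscle RNA in that value was not tested. WT HFD 3 was also the highest female library for Hadha, Hadh, Ehhadh and Etfdh, where the part of muscle RNA was not tested either. In males Pdk4 ran from 1.07 to 50.1 CPM, while muscle markers reached at most 1.87 CPM. Some members differed between the library sides in females. Etfdh (-0.72), Acads (-0.60) and Hadha (-0.55) were lower and Acot2 (0.81), Hadhb (0.73) and Etfb (0.66) higher on the side that holds library 1 of both WT groups and libraries 2 and 3 of Cyp2b-null ND and 2 of Cyp2b-null HFD. The median over members of this side difference was 0.04.

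Beside the members, 122 other genes of the pathway were drawn from 8 lists, of which 109 were tested in females and 115 in males. None was called by edgeR in any comparison within a sex. On ND, 69 of 109 were higher in Cyp2b-null females (47.4% of all genes; median 0.10), with 15 higher and 5 lower at an unadjusted p below 0.05 (2.98% and 3.36% of all genes). Ppara itself, the receptor gene, was at 142, 163 and 161 CPM in WT ND and at 213, 263 and 275 CPM in Cyp2b-null ND females. It did not overlap (0.69 ± 0.20, edgeR adjusted p = 0.378). On HFD it was at 225, 229 and 295 CPM in WT and at 335, 222 and 299 CPM in Cyp2b-null females, all above the WT ND libraries. In males Ppara was at 243, 241 and 221 CPM in WT ND libraries and at 431 CPM or more in all 9 libraries of the other groups. The male differences from WT ND were 1.18 ± 0.24 for the labelled genotype (edgeR adjusted p = 0.165) and 1.15 ± 0.24 for HFD (edgeR adjusted p = 0.255), and they share the WT ND libraries.

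Plin2, a coat protein of lipid droplets, was at 201, 221 and 292 CPM in WT ND and at 394, 604 and 454 CPM in Cyp2b-null ND females, without overlap (1.02 ± 0.20, edgeR adjusted p = 0.0699). Cyp4a14, an omega-hydroxylase often used as a marker of PPAR-alpha activity, stood at 245, 385 and 854 CPM in WT ND females and at 245, 825 and 466 CPM in Cyp2b-null ND females. These groups overlapped fully (0.05 ± 0.61).

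Over the lists, the HFD comparison in WT had 59 of 109 higher in females (49.7% of all genes), with 9 higher and 4 lower at an unadjusted p below 0.05 (1.67% and 1.82% of all genes). In males 72 of 115 were higher (51.9% of all genes), with 8 and 0 at that threshold (3.61% and 2.88% of all genes). Cidec, a lipid droplet protein, was at 3.46, 1.3 and 2.22 CPM in WT ND males and at 3.54, 15.6 and 7.83 CPM in WT HFD males (1.92 ± 0.59, edgeR adjusted p = 0.541). The groups were apart by a very small gap. The 5 genes of the FGF21 receptor and its co-receptor did not share the direction of Fgf21 on HFD, with 1 of 5 higher in WT females (median -0.11) and 1 of 5 in WT males (median -0.25). Fasting-induced gluconeogenic genes had 4 of 7 higher in WT females on HFD (median 0.01) and 2 of 7 in WT males (median -0.12).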

How the data were processed

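RNA-seq measured 24 liver libraries. The authors deposited raw read counts by gene symbol, in a table for each sex. According to the submitters' processing notes they used FastQC, Trimmomatic, GSNAP, Subread and edgeR with build GRCm38.p5; versions, settings and use of strand: not given in the sources used here. Sample titles set the groups. For 6 female libraries the genotype in the characteristics differs from that in the title. Sorted by title, female Cyp2b9 ran from 788 to 1245 counts in WT and from 0 to 17 in Cyp2b-null libraries. Cyp2b13 ran from 565 to 1138 in WT and stood at 0 in Cyp2b-null, so both genes go with the titles. Cyp2b10 overlapped, at 14 to 97 and 0 to 17. Repeated symbols in the male file (1801) were summed. Spreadsheet dates had replaced 25 symbols in either file (at most 0.16% of a library), and these were not tested.

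For each sex, edgeR 4.0.16 (R 4.3.3, limma 3.58.1) was run on 12 libraries with a term for every group, TMM scaling, its expression filter, robust dispersions and quasi-likelihood tests, and p-values were adjusted over all genes tested by Benjamini-Hochberg. With 2.01 to 2.66 M counts a library, females gave less precise values for low genes than males with 8.28 to 20.2 M. As a square root, the fitted common dispersion came to 0.269 for females and 0.34 for males (0.219 without the divergent library). CPM used TMM factors, and log2 levels a prior count of 2. The code was tested on simulated data for the genotype comparison on ND. At an adjusted p below 0.05, edgeR recovered 16.3% of true log2 changes of size 1 in females and 4.04% in males. At a true size of 2 it recovered 73.5% and 64.6%. A count of 0 members called therefore does not show that levels were equal.

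The alternatives were RLE scaling, DESeq2 1.42.0, no filter, a fit of the compared groups only, a block for the replicate number, the first of repeated symbols, a term for the female library sides, and leaving out each library. Titles number the replicates and do not say what a number stands for. Same-numbered libraries deviated together between WT ND and WT HFD (r from 0.139 to 0.564 in females and 0.11 to 0.127 in males). The 0.564 was between female WT ND 1 and WT HFD 1, which lie on the same library side. In the other comparisons r ran from -0.446 to 0.356, with many pairs below 0. Named members were those called, then those with an unadjusted p below 0.05 and no overlap between libraries. Other names, such as Pdk4, Crot and the members that overlapped, were chosen after their values were seen. The members and lists were chosen with earlier results of these data known. Gene positions are from GENCODE M21 (GRCm38).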

Additional observations from a re-analysis of the deposited data

How the results depend on the processing

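The fits called 0 members in every comparison as reported, and 186 of 198 recounts under the alternatives gave the same count. Without the filter on low counts, members called were 4 in the female genotype comparison on ND (Fgf21, Vnn1, Acot3 and Acaa1b), 1 in the female genotype comparison on HFD (Acot3), 1 for HFD in WT females (Vnn1), 1 for HFD in Cyp2b-null females (Acot3), and 1 each for the female minus male genotype difference on ND and diet difference in the groups labelled Cyp2b-null (Pdk4). In that fit genes with almost no counts enter the shared estimate of the spread, so its calls carry less weight. DESeq2 called 1 member in the female genotype comparison on ND and 1 for HFD in WT males. Fitting the compared groups alone called 1 for HFD in WT males. With the replicate block 1 member was called for HFD in WT females and 5 for HFD in WT males, and the block changed no other count. Leaving out 1 library each gave 0 to 4 members called for HFD in WT males, with 4 without library 1 of the labelled Cyp2b-null ND males, and 0 in the other comparisons. No member difference with an unadjusted p below 0.05 changed sign under these alternatives. All 132 recomputed medians moved by less than the spread between replicates, but 4 changed sign. The pooled SD of the library medians was 0.18 in females and 0.36 in males. This is a spread of single libraries and not the error of a group difference, so staying within it does not show stable medians. In the female genotype comparison on ND the median was 0.03 on 1 library side and 0.72 on the other. The male SD includes the divergent library, so it cannot judge the moves on leaving that library out. Without library 1 of the labelled Cyp2b-null ND males the median went from -0.14 to 0.07 in the male genotype comparison on ND and from 0.09 to -0.23 in the male interaction. For HFD in Cyp2b-null females it went from 0.08 to -0.06 without Cyp2b-null ND library 1 and to -0.01 without Cyp2b-null HFD library 2. Leaving out 1 library each, the median member difference ran from 0.29 to 0.56 in the female genotype comparison on ND and from 0.33 to 0.52 for HFD in WT males; in the male genotype comparison on ND it ran from -0.38 to 0.07. Low counts limit Fgf21 in females, at 1 to 2 counts per WT ND library.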
